A study of Mus musculus with 8 samples.

Results

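The 10 genes described here encode metallothioneins and enzymes of the oxidative stress response, and they were chosen by name as all rows of the deposited expression table that carry one of these symbols, 10 of 54532. They are the metallothioneins *Mt1* and *Mt2*, the glutathione and cystine genes *Gclc*, *Gclm* and *Slc7a11*, the thioredoxin-linked genes *Txnrd1* and *Srxn1*, the quinone and haem enzymes *Nqo1* and *Hmox1*, and the extracellular superoxide dismutase *Sod3*. In cells under oxidative or electrophilic stress, the transcription factor NRF2, encoded by *Nfe2l2*, escapes degradation by its adaptor KEAP1, enters the nucleus, pairs with a small MAF protein and binds antioxidant response elements near genes for glutathione synthesis, thioredoxin recycling and detoxification. Metallothioneins are small cysteine-rich proteins that bind zinc and copper, and their genes are classic targets of the metal-sensing factor MTF1, of glucocorticoids and of oxidants. In the infarcted heart these systems are studied as defences of stromal and muscle cells against reactive oxygen, free haem and metal ions.

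The cells were MICFs, cardiac fibroblasts taken from infarcted hearts of male wild-type C57BL/6 mice that were bought at 8 weeks of age. By staining, the paper found that MICF preparations were mostly fibroblasts, with macrophages as the next largest part and few endothelial cells. In all 4 groups the cells carried lentiviruses for MGTMyoS overexpression, that is *Mef2c*, *Gata4*, *Tbx5*, *Myocd* and *Sall4*, with eGFP, all under a promoter that doxycycline switches on. For the *in vivo* samples the infected cells were injected into infarcted C57BL/6 hearts and sorted as eGFP+ cells after 1 week or 2 weeks, from mice that drank doxycycline and received tacrolimus, methylprednisolone (a glucocorticoid) and mycophenolate mofetil every day. For the *in vitro* samples the same infected cells stayed in culture for 1 week or 2 weeks, and the culture medium the study describes held serum, a serum replacement, SB431542, baricitinib and doxycycline. Each group had 2 libraries, and no source used here says which animals or wells they came from, so the p-values measure the spread between these libraries, which may be technical. The study's results text says that the cultured cells were also sorted for eGFP. Its methods name sorted eGFP+ cells and cultured cells separately, and describe the sort only for hearts. Hearts were chopped and digested to single cells before the *in vivo* sort. Site, drugs, medium, the digestion of heart tissue and possibly the sort changed together between the *in vivo* and the *in vitro* samples and cannot be told apart. The comparisons ask how the same infected cells differ in expression between the heart and the culture dish at each week, and between the weeks.

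Expression was given as FPKM, the fragments on a gene scaled by gene length and library size. Between 12304242 and 14546904 fragments per library fell on genes, and 1 fragment on a gene of 1 kb corresponded to an FPKM of 0.0650 to 0.0905. Values were compared as log2(FPKM + 0.1) with limma over the 15708 genes whose FPKM reached 0.5 in 2 or more libraries, and all 10 genes passed that filter. A change was called where the Benjamini-Hochberg adjusted p was under 0.01 and the log2 fold change exceeded 1 in either direction, and a fold on this scale understates the change of a gene with low FPKM. The deposited FPKM include a scaling between libraries, and without it the median log2 fold change of all genes moved to -0.34 (1 week) and -0.32 (2 weeks). The 1-week comparison called 1224 genes higher *in vivo* and 796 lower (906 and 1558 without the scaling), and the 2-week comparison 1417 and 1265 (1032 and 2087 without it). Summed levels of cell type markers also differed between the settings. The summed FPKM of 12 fibroblast markers was 14468 to 15534 *in vivo* against 4056 to 4217 *in vitro* at 1 week. At 2 weeks it was 11762 to 13395 against 2659 to 2664. Of these 12 genes 7 were higher at 1 week (58.3%, against 7.79% of all tested genes) and 8 at 2 weeks (66.7%, against 9.02%). By this rule 0 were lower (against 5.07% and 8.05%). At a limma adjusted p under 0.05 with no fold limit, 9 were higher and 2 lower at 1 week, and 10 and 1 at 2 weeks. Of all tested genes 21.4% and 20.6% were at 1 week, and 24.6% and 25.2% at 2 weeks. The sum over 12 cardiomyocyte markers was 11.3 to 13.7 *in vivo* against 112 to 125 *in vitro* at 1 week and 18.7 to 26.4 against 563 to 641 at 2 weeks. Over 10 endothelial markers the sum was 100 to 114 against 26.2 to 27.3 at 1 week and 97.2 to 106 against 62.6 to 73.3 at 2 weeks. In such bulk samples fewer cells of a type and less RNA per cell cannot be told apart, and the part of cell makeup in the differences below was not tested.

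Of the 10 genes, *Mt1*, *Gclc* and *Nqo1* were lower *in vivo* than *in vitro* at both weeks, *Hmox1* was lower at 2 weeks, and *Sod3* was higher at both weeks. At 1 week 3 of the 10 genes were lower, where 5.07% of all tested genes were, and 1 was higher, where 7.79% were, which makes 12.9% of all genes in either direction. At 2 weeks 4 were lower, against 8.05% of all tested genes, and 1 was higher, against 9.02% (17.1% in either direction). With an adjusted p under 0.05 and no fold limit, 6 of the 10 genes were lower and 1 higher at each week, where 20.6% and 21.4% of all tested genes were at 1 week and 25.2% and 24.6% at 2 weeks. The 10 genes had a median log2 fold change of -0.62 (1 week) and -0.92 (2 weeks), beside -0.0058 and -0.0034 over all tested genes. The *in vivo* libraries lay entirely below the *in vitro* libraries for 7 of the 10 genes at each week, where 36.6% of all tested genes did so at 1 week and 37.4% at 2 weeks.

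**Figure D1:**
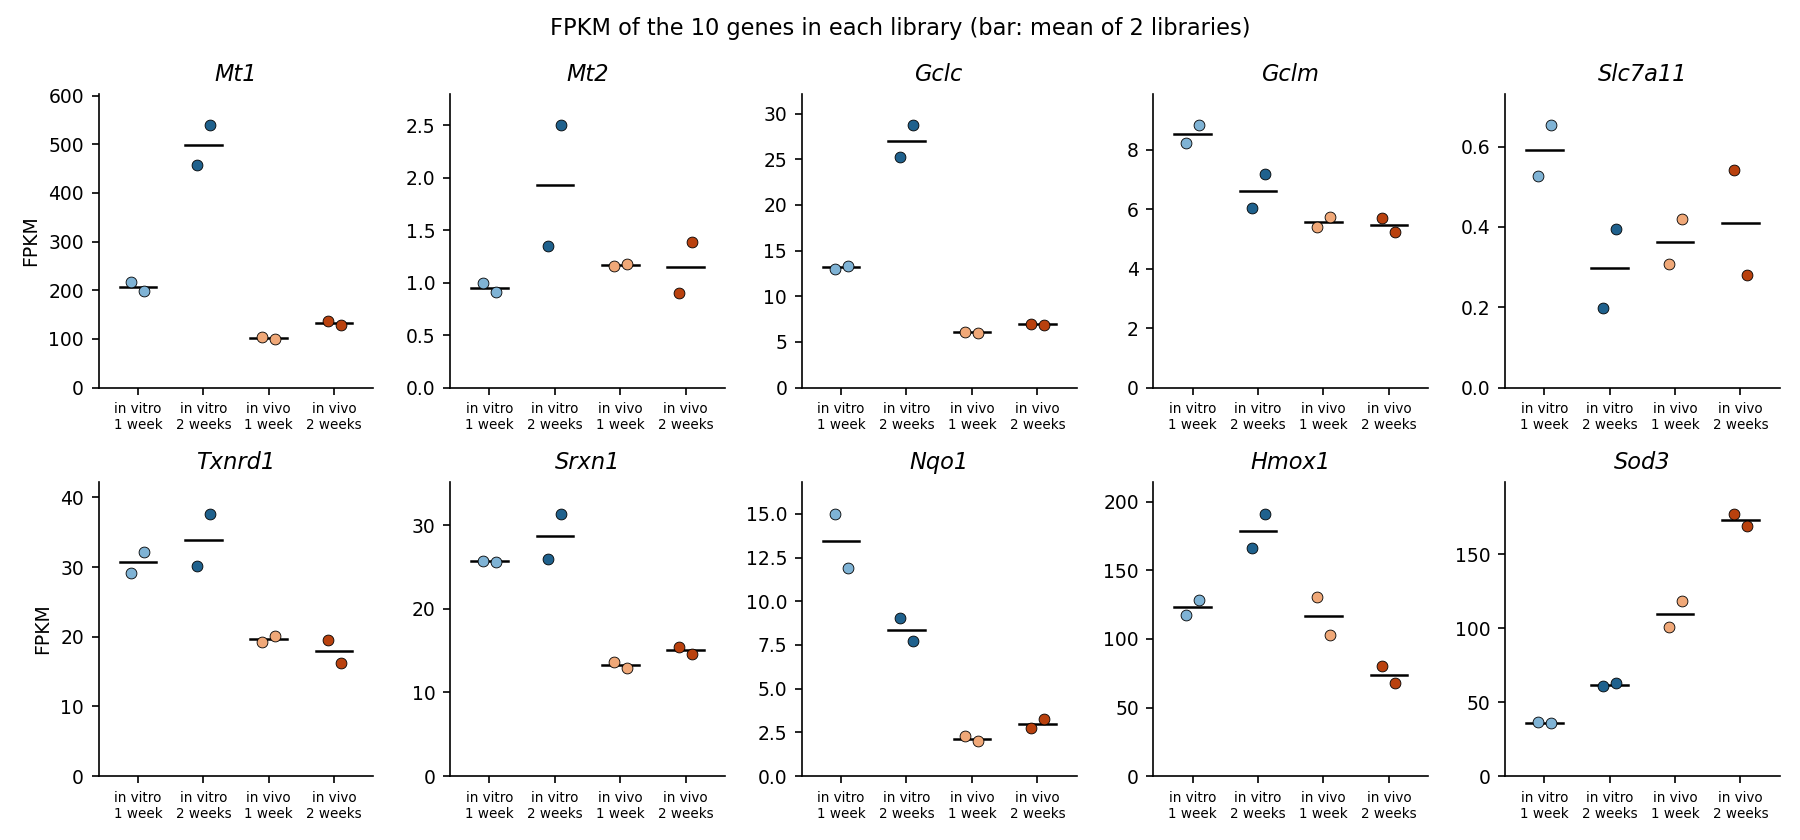
FPKM (vertical axes, linear from 0, a separate scale for each gene) of the 10 genes in the 2 libraries of each group, with a bar at the mean of the 2 libraries. *Mt1* and *Gclc* are highest in the 2-week *in vitro* libraries, *Nqo1* in the 1-week *in vitro* libraries and *Sod3* in the 2-week *in vivo* libraries. The points of *Slc7a11*, and at 2 weeks those of *Mt2*, spread widely within groups.

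*Mt1* and *Mt2* encode the widely expressed metallothioneins and lie next to each other on the plus strand of chromosome 8, at chr8:94179082-94180327 and chr8:94172664-94173568 in mm10, with 5513 bases between them. *Mt1* is shown first because it had the highest level of the 10 genes in both *in vitro* groups. Its FPKM was 104 and 99.7 *in vivo* at 1 week and 137 and 129 *in vivo* at 2 weeks. In the *in vitro* libraries it was 216 and 198 at 1 week and 456 and 539 at 2 weeks. All *in vivo* libraries were below all *in vitro* libraries, and within each setting the 2-week libraries were above the 1-week libraries. *Mt1* was 2.03-fold lower *in vivo* at 1 week, with a log2 fold change of -1.02 (SE 0.093, limma adjusted p = 2.01e-04), a value close to the fold limit that fell short of it without *in vivo* replicate 2 (-0.997) or without *in vitro* replicate 1 (-0.963). At 2 weeks it was 3.74-fold lower, at -1.90 (SE 0.093, limma adjusted p = 1.02e-05).

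*Mt2* read far lower than its neighbour. Its FPKM was 1.16 and 1.17 *in vivo* and 0.994 and 0.911 *in vitro* at 1 week, and 0.904 and 1.39 *in vivo* and 1.35 and 2.50 *in vitro* at 2 weeks. These values rested on 6 to 20 fragments per library. The *Mt1* value was 84.8 to 337 times the *Mt2* value of the same library, on the FPKM scale, which is per length. *Mt2* did not pass the test at 1 week (log2 fold change 0.27, 95% interval -0.47 to 1.01, limma adjusted p = 0.52) or at 2 weeks (-0.67, -1.41 to 0.07, adjusted p = 0.12), and at this depth a difference of the size seen for *Mt1* at 1 week lies inside the 2-week interval.

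An annotated antisense gene covers most of *Mt2*. *Gm45774*, on the minus strand at chr8:94170748-94173412, overlaps 432 of the 588 exon bases of *Mt2* (73.5%), which leaves 156 bases of *Mt2* with no other gene on them. *Mt1* shares no exon base with another gene, and the length used for it was 1246 bases, the whole of its span. *Gm45774* itself read 0.126 to 0.532 FPKM, from 4 to 19 fragments per library. No source used here states whether fragments were counted by strand or what was done with fragments on more than 1 gene. Without strand, reads of *Mt2* and of *Gm45774* cannot be told apart, so the level of *Mt2* is uncertain here, and the part of the overlap in its low value was not tested.

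**Figure D2:**
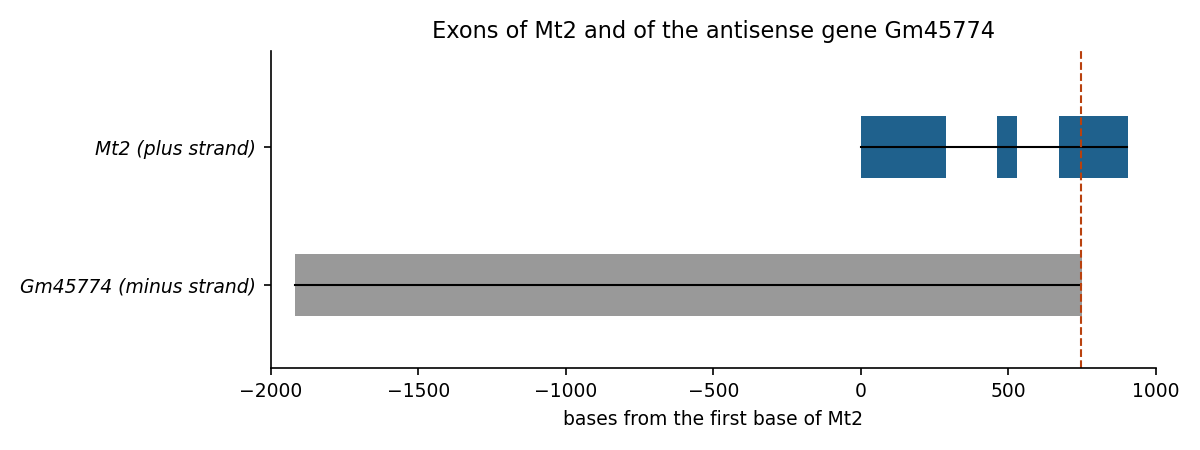
Exons of *Mt2* (blue, plus strand) and of the antisense gene *Gm45774* (grey, minus strand), drawn to scale as bases from the first base of *Mt2*. The dashed line marks the end of *Gm45774* at 748 bases, so the first exons of *Mt2* and the start of its last exon lie on both genes.

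The promoter windows of both metallothioneins are shown because letters for metal and antioxidant response elements are what such genes are known for. They come from RefSeq on GRCm38.p6, the build that mm10 names, run from 250 bases before to 50 after an annotated start, and were found for 7 of the 10 genes, in 9 windows. The windows were searched on both strands for the metal response element core TGCACNC or TGCGCNC and for the antioxidant response element core TGACNNNGC. At least 1 metal core was present in 25.7% of 32851 windows of this length, at least 2 in 7.11% and at least 4 in 0.517%, and at least 1 antioxidant core in 12.4%. In the 2 sequences that follow, both on the plus strand, at chr8:94178839-94179138 for *Mt1* and chr8:94172368-94172667 for *Mt2*, capitals mark the metal cores.
Mt1: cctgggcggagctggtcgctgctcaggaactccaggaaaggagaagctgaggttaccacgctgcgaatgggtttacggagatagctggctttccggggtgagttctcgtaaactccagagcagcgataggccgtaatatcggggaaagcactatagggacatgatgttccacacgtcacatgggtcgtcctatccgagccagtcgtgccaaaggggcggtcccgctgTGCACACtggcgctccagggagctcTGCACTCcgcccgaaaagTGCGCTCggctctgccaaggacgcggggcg
Mt2: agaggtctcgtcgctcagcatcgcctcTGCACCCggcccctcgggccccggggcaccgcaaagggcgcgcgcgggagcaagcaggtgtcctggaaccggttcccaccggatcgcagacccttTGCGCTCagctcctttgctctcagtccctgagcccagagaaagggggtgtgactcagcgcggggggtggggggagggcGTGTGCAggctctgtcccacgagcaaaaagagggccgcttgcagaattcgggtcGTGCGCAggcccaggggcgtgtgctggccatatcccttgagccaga
The *Mt1* window held 3 metal cores, the first 23 bases before the start, and no antioxidant core. The *Mt2* window held 4 metal cores, and also 1 antioxidant core 79 bases before the start. No match overlapped another in these windows, and a match is a description of letters, not a site.

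The glutathione genes come next. *Gclc* encodes the catalytic and *Gclm* the modifier subunit of glutamate-cysteine ligase, the rate-limiting enzyme of glutathione synthesis. The FPKM of *Gclc* was 6.10 and 5.99 *in vivo* against 13.0 and 13.3 *in vitro* at 1 week, and 6.99 and 6.85 *in vivo* against 25.3 and 28.8 *in vitro* at 2 weeks. The groups did not overlap at either week, and the replicates of each group were close to each other. *Gclc* was 2.16-fold lower *in vivo* at 1 week (log2 fold change -1.11, SE 0.078, limma adjusted p = 6.17e-05) and 3.86-fold lower at 2 weeks (-1.95, SE 0.078, adjusted p = 4.26e-06).

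*Gclm* differed less. Its FPKM was 5.42 and 5.73 *in vivo* against 8.22 and 8.83 *in vitro* at 1 week, and 5.70 and 5.24 *in vivo* against 6.03 and 7.19 *in vitro* at 2 weeks. The libraries did not overlap at either week, but the log2 fold changes of -0.60 (limma adjusted p = 0.0041) and -0.26 (adjusted p = 0.079) were under the fold limit. The ratio of *Gclc* to *Gclm* on the FPKM scale was 1.04 to 1.13 *in vivo* and 1.51 to 1.59 *in vitro* at 1 week, and 1.23 to 1.31 *in vivo* and 4.0 to 4.19 *in vitro* at 2 weeks. So the ratio was higher in culture than in the heart at each week, and highest in the 2-week cultures. It depends on the gene lengths used (3766 bases for *Gclc* and 6291 for *Gclm*), so it compares groups and does not give the balance of the 2 mRNAs. The *Gclm* promoter window held 1 antioxidant core, 134 bases before the start, which overlapped 1 of its 3 metal cores.

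*Slc7a11*, the cystine importer subunit xCT that supplies cysteine for glutathione, was barely expressed. Its FPKM was 0.307 and 0.419 *in vivo* against 0.527 and 0.654 *in vitro* at 1 week, and 0.541 and 0.280 *in vivo* against 0.197 and 0.396 *in vitro* at 2 weeks, from 38 to 136 fragments per library. The groups overlapped at 2 weeks, and neither log2 fold change passed the test (-0.58, 95% interval -1.59 to 0.43, at 1 week and 0.36, -0.65 to 1.37, at 2 weeks). The 1-week interval includes a fall of over 2-fold and the 2-week interval a rise of over 2-fold, so changes of that size in these directions were not resolved.

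In the thioredoxin system, *Txnrd1* encodes the cytosolic reductase that recharges thioredoxin, and *Srxn1* encodes sulfiredoxin, which repairs overoxidized peroxiredoxins. *Txnrd1* read 19.2 and 20.1 FPKM *in vivo* against 29.2 and 32.2 *in vitro* at 1 week, and 19.6 and 16.2 *in vivo* against 30.2 and 37.7 *in vitro* at 2 weeks. The FPKM of *Srxn1* was 13.7 and 12.9 *in vivo* against 25.8 and 25.6 *in vitro* at 1 week, and 15.5 and 14.6 *in vivo* against 26 and 31.4 *in vitro* at 2 weeks. For both genes every *in vivo* library was below every *in vitro* library of either week. Neither gene reached the fold limit, although the adjusted p did pass. The log2 fold change of *Srxn1* was -0.94 at 1 week (SE 0.095, limma adjusted p = 3.11e-04) and -0.92 at 2 weeks (SE 0.095, adjusted p = 2.77e-04), and that of *Txnrd1* was -0.64 (SE 0.130, adjusted p = 0.0074) and -0.92 (SE 0.130, adjusted p = 0.0012). Without the scaling between libraries *Srxn1* passed at both weeks (-1.29 and -1.25) and *Txnrd1* at 2 weeks (-1.25), and *Srxn1* also passed at 1 week after quantile normalization (-1.02). At 2 weeks *Txnrd1* also passed without *in vivo* replicate 1 (-1.05), and without *in vitro* replicate 1 both *Txnrd1* (-1.08) and *Srxn1* (-1.06) passed.

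The windows of these thioredoxin genes are shown because both held an antioxidant core and both genes were lower *in vivo* at each week by the adjusted p alone, without reaching the fold limit. *Srxn1* lies at chr2:152105274-152105573 and the middle of the 3 annotated *Txnrd1* starts at chr10:82858956-82859255, both on the plus strand, and capitals mark the antioxidant core.
Srxn1: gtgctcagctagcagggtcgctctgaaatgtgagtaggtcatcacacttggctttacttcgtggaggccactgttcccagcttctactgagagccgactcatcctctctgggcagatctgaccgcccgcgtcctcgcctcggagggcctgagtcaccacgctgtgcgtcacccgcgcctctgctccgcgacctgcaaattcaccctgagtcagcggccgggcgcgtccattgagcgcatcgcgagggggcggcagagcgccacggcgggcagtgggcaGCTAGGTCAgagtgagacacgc
Txnrd1: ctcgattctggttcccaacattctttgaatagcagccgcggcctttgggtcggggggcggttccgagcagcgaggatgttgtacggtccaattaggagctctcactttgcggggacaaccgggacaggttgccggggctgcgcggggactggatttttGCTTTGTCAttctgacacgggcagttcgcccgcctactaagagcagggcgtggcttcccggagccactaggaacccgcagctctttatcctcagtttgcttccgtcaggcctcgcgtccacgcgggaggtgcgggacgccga
In *Srxn1* the core began at base 29 after the start, and in *Txnrd1* 92 bases before it. The *Srxn1* window also held 1 metal core, 19 bases before the start, which is not capitalized. The other 2 *Txnrd1* windows and those of *Nqo1* and *Slc7a11* held neither core, which says only that these letters are not in those windows.

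*Nqo1* encodes the quinone reductase often used as a readout of NRF2. Its FPKM was 2.31 and 1.98 *in vivo* against 15 and 11.9 *in vitro* at 1 week, and 2.74 and 3.26 *in vivo* against 9.03 and 7.72 *in vitro* at 2 weeks. Every *in vivo* library was below every *in vitro* library, and the gap was wider at 1 week. *Nqo1* was 6.02-fold lower *in vivo* at 1 week (log2 fold change -2.59, SE 0.158, limma adjusted p = 3.36e-05), the largest change among the 10 genes at that week, and 2.73-fold lower at 2 weeks (-1.45, SE 0.158, adjusted p = 3.50e-04).

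*Hmox1* encodes haem oxygenase 1, which splits haem into biliverdin, iron and carbon monoxide, and it is abundant in macrophages that clear red cells. Its FPKM was 131 and 103 *in vivo* against 117 and 129 *in vitro* at 1 week, and 80.1 and 67.5 *in vivo* against 166 and 192 *in vitro* at 2 weeks. The groups overlapped at 1 week and were apart at 2 weeks. *Hmox1* had a log2 fold change of -0.08 at 1 week (95% interval -0.41 to 0.25, limma adjusted p = 0.67) and -1.28 at 2 weeks (SE 0.139, adjusted p = 3.54e-04), a 2.42-fold lower level.

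Macrophage markers moved in part with *Hmox1*. Summed over 18 macrophage markers, none of them at 0, the FPKM was 3373 to 3986 *in vivo* and 5896 to 6693 *in vitro* at 1 week, and 2353 to 2857 *in vivo* and 5588 to 6834 *in vitro* at 2 weeks. Of these markers 1 was lower *in vivo* at 1 week (5.56%, against 5.07% of all tested genes). At 2 weeks 10 were lower (55.6%, against 8.05%). Higher ones numbered 2 (11.1%, against 7.79%) and 0 (against 9.02%). At a limma adjusted p under 0.05 with no fold limit, 7 were lower and 2 higher at 1 week. Of all tested genes 20.6% and 21.4% were. The median log2 fold change of the 18 markers was -0.33 at 1 week. Their sums did not overlap between the settings at that week while the lysozyme gene *Lyz2* was included. *Lyz2* was left out only after seeing the data. Without it the other 17 markers summed to overlapping values at 1 week, 2042 to 2533 *in vivo* and 2322 to 2679 *in vitro*. These 17 moved in both directions at 1 week. The mean FPKM of *Ctss* was 379 *in vivo* and 158 *in vitro*, and that of *Cd68* was 117 and 186. At 2 weeks the 17 markers summed to 1378 to 1655 and 2667 to 3122 and stayed apart. The part of macrophages in the *Hmox1* difference was not tested.

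**Figure D3:**
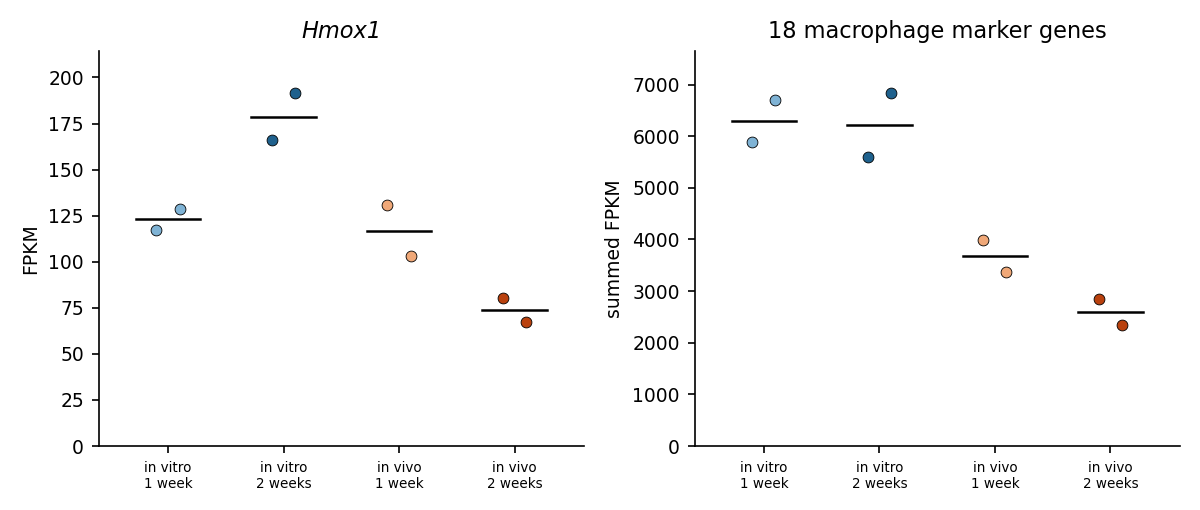
FPKM of *Hmox1* (left) and the summed FPKM of 18 macrophage marker genes (right) in the 2 libraries of each group, with bars at group means and linear axes from 0. Both are lowest in the 2-week *in vivo* libraries, and at 1 week the *Hmox1* values of the settings overlap while the sums do not. Without *Lyz2*, left out after seeing the data, the other 17 markers sum to overlapping values of 2042 to 2533 *in vivo* and 2322 to 2679 *in vitro* at 1 week.

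*Sod3*, the secreted superoxide dismutase that binds the extracellular matrix, went the other way. Its FPKM was 101 and 118 *in vivo* against 36.3 and 35.8 *in vitro* at 1 week, and 177 and 169 *in vivo* against 60.8 and 63.0 *in vitro* at 2 weeks. Each *in vivo* library exceeded each *in vitro* one. *Sod3* was 3.02-fold higher *in vivo* at 1 week (log2 fold change 1.60, SE 0.082, limma adjusted p = 1.63e-05) and 2.80-fold higher at 2 weeks (1.49, SE 0.082, adjusted p = 1.71e-05). The fibroblast marker sum given above was also higher *in vivo* at both weeks, and its part in the *Sod3* difference was not tested. The intracellular dismutases did not share this direction, since the log2 fold change was -0.28 and then -0.60 for the cytosolic *Sod1* and -0.32 and -0.30 for the mitochondrial *Sod2*, all under the fold limit. The ratio of *Sod3* to *Sod1* on the FPKM scale was 3.89 to 5.47 *in vivo* and 1.10 to 1.26 *in vitro*.

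**Figure D4:**
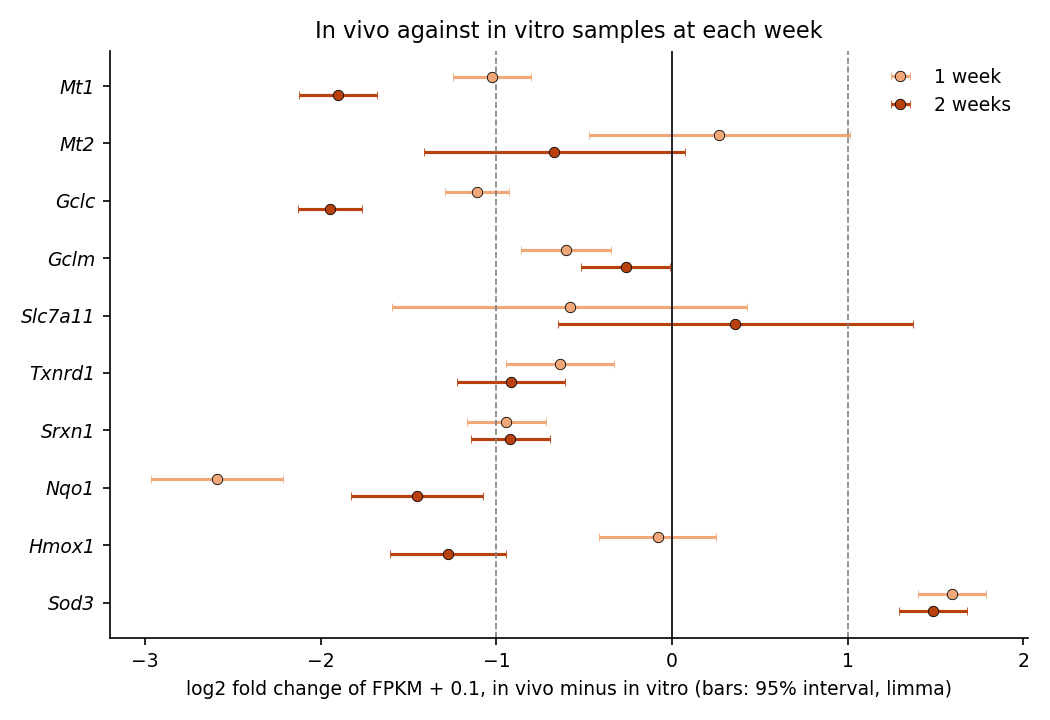
Log2 fold change, *in vivo* minus *in vitro*, of the 10 genes at 1 week (light) and 2 weeks (dark) with 95% intervals from limma, and dashed lines at the fold limit of 1 in each direction. *Gclc* and *Mt1* lie farther below 0 at 2 weeks than at 1 week, *Nqo1* lies nearer to 0 at 2 weeks, and *Sod3* is the 1 gene past the limit on the right.

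The weeks were then compared within each setting. In culture *Mt1* rose 2.40-fold from 1 week to 2 weeks (log2 fold change 1.26, SE 0.093, limma adjusted p = 4.47e-04) and *Gclc* rose 2.04-fold (1.03, SE 0.078, adjusted p = 4.90e-04), and they were the 2 of 10 genes that were higher, where 2.76% of all tested genes were (3.81% in either direction). *Gclc* fell under the fold limit without the second *in vitro* library of 2 weeks (0.94), with a pseudocount of 1 (0.98) and without the scaling between libraries (0.98). After quantile normalization neither passed (0.87 for *Mt1* and 0.94 for *Gclc*). By the full rule in limma, 0 of the 10 genes were lower with time in culture, where 1.05% of all tested genes were. At an unadjusted p under 0.05 in either direction there were 7 of the 10, where 38.2% of all tested genes were, and limma voom on the fragments also gave the 2 higher genes alone. *Sod3* (0.78), *Hmox1* (0.54), *Nqo1* (-0.67) and *Gclm* (-0.37) had adjusted p of 0.0014, 0.032, 0.023 and 0.047 in the same comparison, with changes under the fold limit. With these, 4 of the 10 genes were higher and 2 lower at an adjusted p under 0.05, where 14.1% and 11% of all tested genes were.

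In the heart 0 of the 10 genes changed from 1 week to 2 weeks by the same limma rule, although 5 had an unadjusted p under 0.05, as did 31.7% of all tested genes, and limma voom also gave 0. Of all tested genes 1.23% were higher and 0.949% lower, 2.18% in all. The nearest were *Sod3*, with a log2 fold change of 0.67 (adjusted p = 0.0040), *Hmox1*, with -0.66 (adjusted p = 0.024), and *Mt1*, with 0.38 (adjusted p = 0.036). At an adjusted p under 0.05 this made 2 genes higher and 1 lower, against 8.59% and 7.17% of all tested genes.

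The difference between the weeks in the *in vivo* effect was tested directly as an interaction. By the full rule 0 of the 10 genes passed in limma, where 0.573% of all tested genes were higher and 1.15% lower (1.73% in all), and 4 had an unadjusted p under 0.05, as did 26.9% of all tested genes. These 4 also had an adjusted p under 0.05, 1 of them higher and 3 lower, against 3.85% and 6.07% of all tested genes. They were *Gclc*, at -0.84 on the log2 scale (SE 0.110, adjusted p = 0.0076), *Mt1*, at -0.88 (SE 0.132, adjusted p = 0.011), *Hmox1*, at -1.19 (SE 0.197, adjusted p = 0.015), and *Nqo1*, at 1.14 (SE 0.223, adjusted p = 0.026). A negative value means that the gene was lower *in vivo* by more at 2 weeks than at 1 week, and *Nqo1* went the opposite way. Over the alternatives the adjusted p rose to as much as 0.061 for *Mt1*, 0.065 for *Hmox1* and 0.098 for *Nqo1*, and stayed under 0.05 for *Gclc*. With limma voom on the fragments *Hmox1* passed the full rule (-1.17, adjusted p = 7.00e-04).

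The order of the levels changed between the groups. *In vivo* at 1 week *Hmox1*, *Sod3* and *Mt1* led with mean FPKM of 117 ± 19.4, 110 ± 12.5 and 102 ± 2.76 (SD, n = 2), and the libraries of neighbours in this order overlapped. At 2 weeks *in vivo* the order was *Sod3*, at 173 ± 5.80, then *Mt1*, at 133 ± 5.83, then *Hmox1*, at 73.8 ± 8.88 (SD, n = 2), with no overlap. *In vitro* the order at both weeks was *Mt1*, *Hmox1* and then *Sod3*, at 207 ± 12.6, 123 ± 7.90 and 36.1 ± 0.377 at 1 week and 498 ± 58.7, 179 ± 18 and 61.9 ± 1.54 at 2 weeks (SD, n = 2). *Txnrd1* and *Srxn1* followed in all 4 groups. Neighbours whose libraries also overlapped were *Nqo1* and *Gclc* in the 1-week cultures, and *Txnrd1*, *Srxn1* and *Gclc* in the 2-week cultures. *Mt2* and *Slc7a11* came last throughout.

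Across the 8 libraries, which share the group structure, the log2 levels of *Mt1* and *Gclc* had a Pearson r of 0.991, and those of *Txnrd1* and *Srxn1* one of 0.951. *Mt1* and *Mt2* had an r of 0.608. The genes most like *Mt1* in this sense were *Smim4*, *Rilpl2* and *Psma7* (r of 0.998, 0.997 and 0.997), and those most like *Gclc* were *Usp2*, *Rilpl2* and *Gpr146* (0.998, 0.996 and 0.996). For *Nqo1* they were *Plin3*, *Pdha1* and *Maoa* (0.996, 0.991 and 0.990). The genes most like *Hmox1* were *Filip1l*, *Irf8* and *Snx5* (0.987, 0.984 and 0.984), and those most like *Sod3* were *Mmp2*, *Gm10382* and *Jund* (0.998 for all 3).

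Among 11 regulators of the pathway, 0 passed at 1 week in limma, where 12.9% of all tested genes did in either direction. At that week 6 of the 11 (54.5%) had an unadjusted p under 0.05, near the 50.6% of all tested genes. At 2 weeks 1 was lower (9.09%, near the 8.05% of all tested genes) and 0 were higher (against 9.02%). The lower gene was *Nfe2l2*, which encodes NRF2 itself. Its FPKM was 51.0 and 46.5 *in vivo* against 83.9 and 94.7 *in vitro* at 1 week, and 40.5 and 40.5 *in vivo* against 106 and 127 *in vitro* at 2 weeks. The log2 fold change of *Nfe2l2* was -0.87 at 1 week (SE 0.102, limma adjusted p = 6.32e-04) and -1.51 at 2 weeks (SE 0.102, adjusted p = 3.97e-05). *Keap1*, which encodes the adaptor that marks NRF2 for degradation, had log2 fold changes of -0.03 and 0.18. *Bach1*, a haem-sensing repressor at the same elements, was at 0.29 and -0.74, and its interaction of -1.02 passed the full rule (adjusted p = 0.0088). *Maff*, a small MAF partner, rose in culture between the weeks (1.49, adjusted p = 5.12e-04). These are mRNA levels, and NRF2 is known to be controlled mainly as a protein.

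The NRF2 targets outside the 10 genes pointed the same way as most of them. Of 46 listed targets 38 were tested. At 1 week 10 of them were lower *in vivo* (26.3%, against 5.07% of all tested genes). At 2 weeks 6 were lower (15.8%, against 8.05%). At either week 0 were higher, where 7.79% and 9.02% of all tested genes were. At a limma adjusted p under 0.05 with no fold limit, 29 were lower and 3 higher at 1 week. The same rule gave 28 and 2 at 2 weeks. Of all tested genes 20.6% and 21.4% were at 1 week, and 25.2% and 24.6% at 2 weeks. The median log2 fold change of the list was -0.65 at 1 week and -0.55 at 2 weeks, beside -0.0058 and -0.0034 over all tested genes. The largest differences were in glutathione S-transferases, which join glutathione to electrophiles, with *Gsta3* at -2.85 and -2.12, *Gstm1* at -2.58 and -3.02 and *Gsta4* at -2.30 and -1.44. These belong to families of similar sequence, so the split of reads among members is uncertain. *Gsta3*, *Gsta4* and *Gstm1* were also higher at 2 weeks than at 1 week in the heart (1.48, 1.43 and 1.03). In culture *Gstm1* rose as well (1.48), and *Gsta3* (0.75, limma adjusted p = 0.0082) and *Gsta4* (0.57, adjusted p = 0.033) had smaller differences under the fold limit. *Fth1*, the ferritin heavy chain that stores iron, was lower at 2 weeks (-1.13).

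Genes of zinc and metal handling were called about as often as all tested genes. Of 24 tested, 2 were higher *in vivo* (8.33%, against 7.79% of all genes) and 1 lower (4.17%, against 5.07%) at 1 week, and 3 were higher (12.5%, against 9.02%) and 2 lower (8.33%, against 8.05%) at 2 weeks. *Slc39a14*, a zinc and iron importer (2.05 and 1.94), and *Cp*, the copper ferroxidase ceruloplasmin (2.86 and 2.77), were higher at both weeks. *Slc39a4*, another zinc importer, was lower at both weeks (-1.88 and -2.48), and *Slc30a1*, the zinc exporter that is a known MTF1 target like *Mt1*, was lower at 2 weeks (-1.11). *Mtf1* itself did not pass (-0.13 and -0.21). The other metallothioneins were scarce, with *Mt4* at 0 in all 8 libraries, which in each library allows up to 3 fragments, and *Mt3* at 0.122 to 2.74 FPKM, from 2 to 33 fragments, and higher *in vivo* at 2 weeks (2.55, SE 0.563, limma adjusted p = 0.0086).

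Among 21 other superoxide and peroxide genes, the 1-week comparison gave 3 that were higher *in vivo* (14.3%, against 7.79% of all tested genes) and 0 lower (against 5.07%). The 2-week comparison gave 2 of each (9.52%), near the 9.02% and 8.05% of all tested genes. *Gpx7*, a peroxidase of the endoplasmic reticulum (1.33 and 1.36), and *Txnip*, an inhibitor of thioredoxin (1.31 and 1.02), were higher at both weeks. *Gpx3*, the secreted glutathione peroxidase, was higher at 1 week (1.18). *Glrx* (-1.69), a glutaredoxin, and *Selenop* (-1.26), a selenium carrier, were lower at 2 weeks.

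Around *Hmox1*, the haem and iron list of 19 genes had 3 lower genes at 1 week (15.8%, against 5.07% of all tested genes). At 2 weeks it had 6 (31.6%, against 8.05%). Higher genes numbered 1 at 1 week (5.26%, against 7.79%) and 2 at 2 weeks (10.5%, near the 9.02% of all tested genes). *Blvra*, which encodes the reductase that turns the biliverdin made by haem oxygenase into bilirubin, was lower at both weeks (-1.02 and -2.30). So were *Slc40a1*, the iron exporter ferroportin (-2.22 and -3.12), and *Tfrc*, the transferrin receptor (-1.71 and -2.41). *Hp*, the haemoglobin scavenger haptoglobin, was higher at both weeks (5.07 and 4.25), and *Cd163*, the macrophage receptor for the haptoglobin complex, at 2 weeks (1.48). Red cell markers summed to 6.46 to 6.57 FPKM *in vivo* and 0.595 to 0.648 *in vitro* at 1 week, and to 4.02 to 5.49 and 0.331 to 0.562 at 2 weeks, with the red cell membrane gene *Slc4a1* at 0.

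*Slc7a11* is also a known target of ATF4, the factor of the amino acid response, and *Mt1* of the glucocorticoid receptor, so these lists were read as well. Of 21 ATF4 and amino acid genes 10 were lower *in vivo* at 1 week (47.6%, against 5.07% of all tested genes). At 2 weeks 5 were lower (23.8%, against 8.05%). Higher ones numbered 2 at 1 week (9.52%, near the 7.79% of all tested genes) and 4 at 2 weeks (19.0%, against 9.02%). *Chac1*, which degrades glutathione, was lower at both weeks (-2.61 and -3.07), and *Nupr1*, a stress-induced chromatin protein, was higher at both (1.42 and 1.31). Of 15 glucocorticoid-responsive genes 5 were higher *in vivo* at 1 week (33.3%, against 7.79% of all tested genes) and 0 lower (against 5.07%). At 2 weeks 5 were higher (33.3%, against 9.02%) and 3 lower, where 8.05% of all tested genes were. The receptor gene *Nr3c1* did not pass (-0.33 and 0.15). *Fkbp5*, a cochaperone of the receptor (1.97 and 2.69), and *Dusp1*, a MAP kinase phosphatase (1.98 and 2.50), were higher at both weeks. *Pdk4* (-1.51), *Sult1a1* (-1.42) and *Glul*, glutamine synthetase (-1.32), were lower at 2 weeks. The part of glucocorticoids in the *Mt1* difference was not tested.

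**Figure D5:**
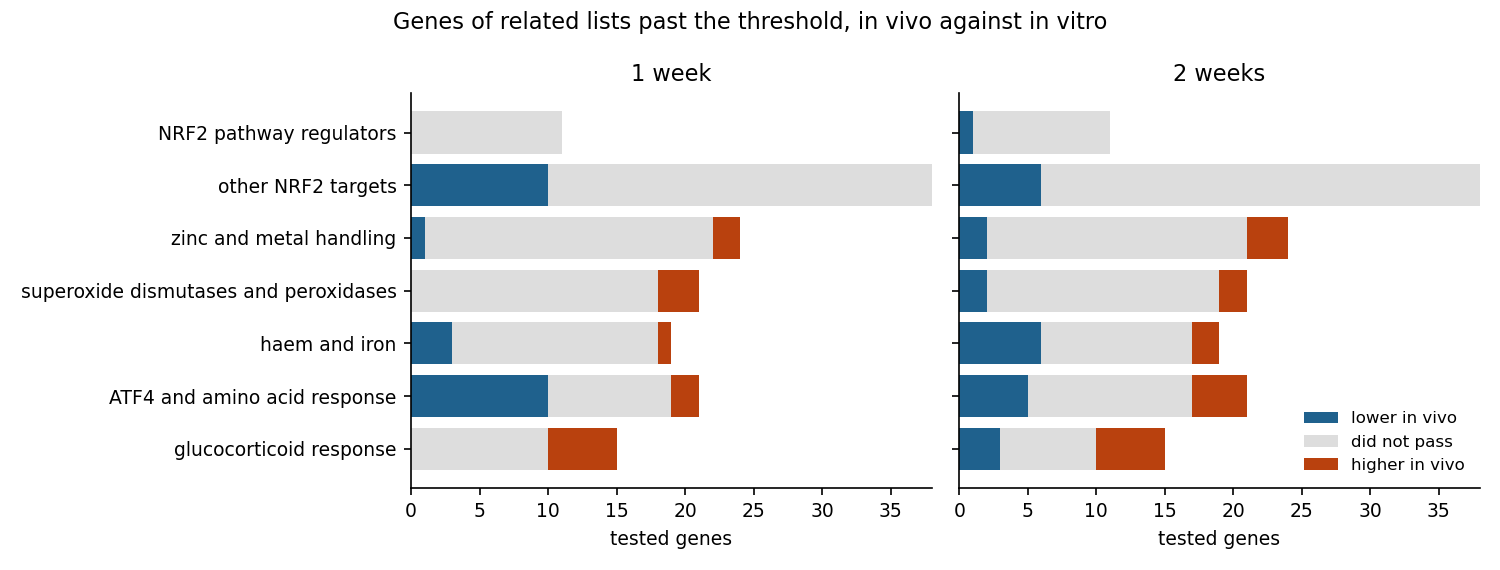
Number of tested genes (horizontal axes) in 7 related lists that were lower *in vivo* (blue), did not pass the test (grey) or were higher *in vivo* (red) at 1 week and at 2 weeks. The other NRF2 targets show 10 and 6 lower genes of 38 and 0 higher. The glucocorticoid list of 15 shows 5 higher genes at each week, with 0 lower at 1 week and 3 lower at 2 weeks.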

How the data were processed

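RNA was measured by sequencing of mRNA libraries in 8 samples. The *in vivo* cells were sorted as eGFP+, and for the cultured cells the study's results and methods differ on a sort. The deposited values are FPKM that the authors had made by a sequencing provider. The submitters' processing notes name CASAVA, HISAT2 2.0.5 and mm10, and the counting tool, the annotation and the use of strand are not given in the sources used here. FPKM multiplied by gene length gave whole multiples of a single step for 100% of values above 0, from which fragments per gene and library sizes were recovered. The library size behind the FPKM was 0.863 to 0.915 times the fragments on genes in the heart samples. In the culture samples it was 1.09 to 1.15 times the fragments on genes. Replicates differed beyond counting error (chi-square of 4.25 to 9.22 per gene). Limits from fragment counts cover counting error only. Exons were read from GENCODE vM21, since 98.3% of 54495 shared identifiers, and all 10 genes described, had the same start and end there as in the deposited table.

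Samples were grouped by their titles. FPKM plus 0.1 were compared on the log2 scale with limma 3.58.1 in R 4.3.3, with all 8 libraries in 4 groups, moderated variances and an intensity trend, and p-values were adjusted by Benjamini-Hochberg over all 15708 tested genes. The limits of 0.01 and 2-fold are the numbers the study used with its count test, but it does not say that its p was adjusted, so the rule here is not the same one. The procedure was tested on simulated data. The genes described, the gene lists and the tests were chosen with earlier results of these data known. Beyond the 10 genes, genes were named as pathway regulators, as up to 3 with the largest rise and fall past the threshold in each list and week, or by the 3 highest Pearson correlations with a described gene. *Sod1*, *Sod2*, *Mtf1*, *Mt3*, *Mt4* and *Nr3c1* were named whatever their values. *Fth1* and *Gm45774* were named after their values were seen. The cell type markers *Lyz2*, *Ctss*, *Cd68* and *Slc4a1* were also named outside these rules, with their values known. The alternatives were other pseudocounts, filters, scalings and thresholds, limma voom on fragments, a fit without the trend, the 4 libraries of a comparison alone, the replicate number as a block, and each library left out in turn. Python 3.11.15, numpy 2.4.6, pandas 2.3.3 and matplotlib 3.10.9 were used. Protein sequences were not used here.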

Additional observations from a re-analysis of the deposited data

Results flagged for a closer look

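The *in vivo* effect differed between the weeks for 4 of the 10 genes at an adjusted p under 0.05 in limma's interaction contrast with Benjamini-Hochberg adjustment, with no limit on the fold, where 3.85% of all tested genes were higher and 6.07% lower by that rule. The value was -0.88 on the log2 scale for *Mt1*, -0.84 for *Gclc* and -1.19 for *Hmox1*, which were lower *in vivo* by more at 2 weeks, and 1.14 for *Nqo1*, which was lower by less. Over the alternatives that gave a value, the adjusted p ran from 7.73e-04 to 0.061 for *Mt1*, from 0.0030 to 0.042 for *Gclc*, from 7.00e-04 to 0.065 for *Hmox1* and from 0.022 to 0.098 for *Nqo1*, and each kept its direction.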

How the results depend on the processing

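Each group had 2 libraries, so single calls rest on a spread shared by all 8 libraries, and *Mt2* and *Slc7a11* rested on 6 to 20 and 38 to 136 fragments. At an adjusted p under 0.05 with no fold limit, limma with Benjamini-Hochberg adjustment called 6605 genes at 1 week, 7825 at 2 weeks, 3942 with time in culture, 2476 with time in the heart and 1558 for the interaction, and of the 10 genes 7 at 1 week, 6 in culture, 3 in the heart and 4 for the interaction. From the 4 libraries of a comparison alone, 0 genes and 0 of the 10 passed with time in culture and 0 genes in the heart, with 5992 and 4198 at an unadjusted p under 0.05. Of the 10 genes 1 passed in culture with a pseudocount of 1, 1 without the scaling and 0 after quantile normalization. The interaction gave 72 genes with no filter on low values, 71 without the variance trend and 472 with limma voom, which called 1 of the 10. Without each library in turn the counts were 1448 to 2044 genes at 1 week (3 to 4 of the 10), 2011 to 2548 at 2 weeks (5 to 7), 198 to 555 in culture (1 to 2), 11 to 221 in the heart and 2 to 86 for the interaction, which gave 271 with all libraries. In the heart the 11 came without *in vivo* replicate 1 of 1 week, 89 without replicate 2, and in culture 198 to 235 without any of its own 4 libraries. Directions turned, none of them past the threshold, for *Mt2* at 1 week without the scaling (-0.0427) and *Txnrd1* in culture after quantile normalization (-0.0198). Leaving out libraries also turned *Txnrd1* in culture (-0.0215 to 0.298), *Hmox1* at 1 week (-0.252 to 0.0877), *Slc7a11* at 2 weeks (-0.0167 to 0.739) and in the heart (-0.275 to 0.480), *Gclm* (-0.0877 to 0.0326) and *Mt2* (-0.337 to 0.228) in the heart, and in the interaction *Srxn1* (-0.112 to 0.160) and *Sod3* (-0.227 to 0.0063). A minimum FPKM of 1 left *Slc7a11* untested, and 4 libraries alone give no interaction. The causes were not tested.

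With the replicate number as a block the interaction gave 27 genes, and the block changed no other count by over 1.5 times. Same-numbered libraries did not deviate together (correlations of -0.048 to -0.011 over 15708 genes), so the numbers were not taken as pairs.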
